A study of Homo sapiens with 9 samples.

Results

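Of 22305 autosomal bins of 120 kb with a compartment score in every Hi-C library, 830 (3.72%) lay on the B side in each growing library and on the A side in each library of RAS-induced senescence (RIS), and these are the B-to-A bins described here. Hi-C counts ligated pairs of DNA fragments and so records which parts of the genome meet in the nucleus. For every chromosome and library, contacts were corrected for distance and correlated between bins, and the score of a bin is its value on the first principal component, divided by the SD, with the positive side (A) set as the side with more protein-coding genes. The B-to-A bins were selected on these measured signs, so their scores are given as a description and were not tested. All libraries came from IMR90, a line of human lung fibroblasts, infected with ER:HRAS(G12V), an oncogenic RAS fused to the oestrogen receptor. The growing group held 3 Hi-C libraries without tamoxifen, and replicate 3 of these is labelled as carrying the MSCV vector as well. The RIS group held 2 Hi-C libraries of cells given 100 nM 4-hydroxytamoxifen (4OHT) for 6 days, which switches the fusion protein on, and no Hi-C library of cells given 4OHT without the oncogene was analysed here. Capture Hi-C, which enriches such libraries for chosen regions, had 2 growing and 2 RIS libraries. The study calls the replicates biological, but the labels do not say whether they were separate cultures, and p-values measure only the spread between these libraries. Whole contacts recovered from the balanced Hi-C values ranged from 109967509 (RIS replicate 1, the shallowest) to 180775315 (growing replicate 3).

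Chromosomes are folded so that active, gene-rich and early-replicating chromatin (compartment A) meets other active chromatin, whereas silent, gene-poor chromatin (compartment B) gathers at the nuclear lamina and around the nucleoli. Compartment membership differs between cell types. In fibroblasts that enter senescence under RAS, heterochromatin is rearranged into foci in the nucleus and the lamina is remodelled. A bulk library averages over many cells, so a small shift in every cell and a large shift in some cells cannot be told apart.

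The B-to-A bins were richer in G and C than other B chromatin, and promoters inside them ranged from dense to nearly bare in CG, the dinucleotide that carries DNA methylation. The bases just upstream of the RefSeq start of SOX1, HELB, CCL20 and IL33, genes described below, are shown to give that range. They came from the RefSeq promoter table of GRCh38.p14, were placed on GRCh37 (the assembly behind hg19) by exact match, all on the plus strand, and contain no annotated exon. In GENCODE a longer CCL20 transcript begins further upstream, so the CCL20 stretch lies in its intron. Capitals mark every CG.
SOX1: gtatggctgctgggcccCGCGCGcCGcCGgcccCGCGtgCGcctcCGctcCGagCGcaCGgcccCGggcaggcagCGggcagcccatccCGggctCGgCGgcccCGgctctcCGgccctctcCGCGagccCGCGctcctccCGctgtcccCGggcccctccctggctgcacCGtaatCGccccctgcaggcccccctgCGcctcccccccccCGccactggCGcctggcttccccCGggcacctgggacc
HELB: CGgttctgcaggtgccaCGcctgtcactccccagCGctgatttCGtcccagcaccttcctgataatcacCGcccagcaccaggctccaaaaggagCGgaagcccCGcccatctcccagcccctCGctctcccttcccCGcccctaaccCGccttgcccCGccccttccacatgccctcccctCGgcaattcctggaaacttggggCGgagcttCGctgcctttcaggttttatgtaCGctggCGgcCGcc
CCL20: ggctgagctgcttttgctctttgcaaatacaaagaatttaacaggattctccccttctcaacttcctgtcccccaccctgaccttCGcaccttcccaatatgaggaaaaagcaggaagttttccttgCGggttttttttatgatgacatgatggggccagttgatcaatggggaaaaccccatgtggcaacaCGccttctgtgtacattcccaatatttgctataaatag
IL33: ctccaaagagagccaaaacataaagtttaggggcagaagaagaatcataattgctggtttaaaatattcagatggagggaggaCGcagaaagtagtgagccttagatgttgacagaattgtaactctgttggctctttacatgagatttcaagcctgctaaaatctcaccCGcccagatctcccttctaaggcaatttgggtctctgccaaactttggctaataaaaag
The SOX1 stretch (chr13:112721213-112721462) held 31 CG and the HELB stretch (chr12:66696023-66696272) 17, each in 250 bases. The CCL20 stretch (chr2:228678308-228678537) held 3 CG in 230 bases and the IL33 stretch (chr9:6215557-6215785) 2 in 229 bases. Across the 517 genes of B-to-A bins with a promoter in that table, the median was 13 CG in 250 bases, between 20 for genes of bins on the A side in every library and 8 for genes of bins on the B side in every library. At least 10 CG were found in 61.7% of the promoters of B-to-A bins, compared with 69.9% of all 14504 promoters matched.

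The B-to-A bins stood close to zero on both sides. Across growing replicates 1 to 3 their median score was -0.23, -0.20 and -0.26, against 0.23 and 0.21 in the RIS pair. Bins on the A side in every library had medians from 0.92 to 0.99, and bins on the B side in every library from -1.17 to -1.08, so the medians of the B-to-A bins crossed the midpoint without reaching those of either compartment. Averaged per condition, growing scores ran from -0.81 to -0.02 and RIS scores from 0.01 to 0.88. The change ran from 0.11 to 1.11 with a median of 0.48, whereas bins on the A or the B side in every library (stable A and stable B) both had a median change of -0.06.

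**Figure D1:**
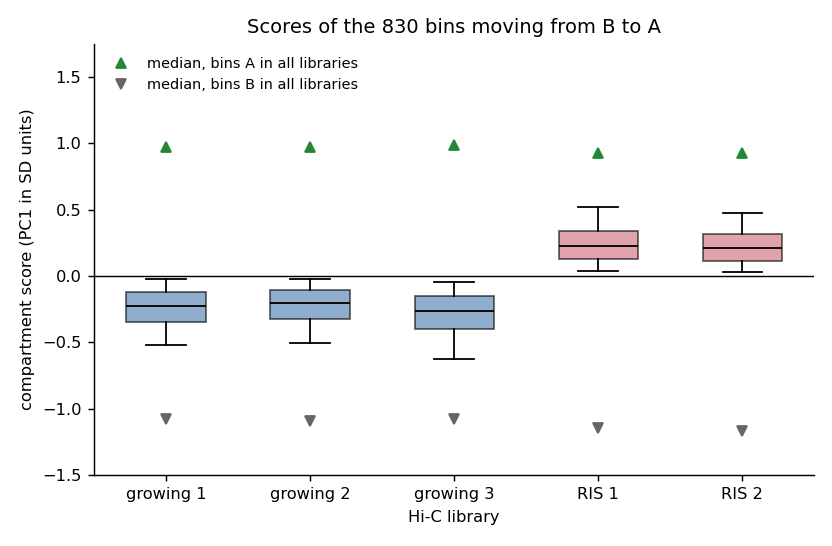
Compartment score (PC1 in SD units) of the 830 B-to-A bins in each Hi-C library; boxes show quartiles with the median line, whiskers the 5th and 95th percentiles, and triangles the medians of bins on the A or B side in every library. The boxes lie just under 0 in the 3 growing libraries and just above 0 in the 2 RIS libraries, far from both triangles; the signs were used to choose the bins.

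Bins that started near zero crossed most often, as the rule favours. Of the 1282 bins with a mean growing score from -0.25 to 0, 478 were B-to-A bins (37.3%), and of the 1292 bins from -0.50 to -0.25, 291 (22.5%). Only 59 of 1440 bins from -0.75 to -0.50 and 2 of 1620 from -1 to -0.75 crossed, and none of the 5269 bins below -1 did. The 5 members nearest the threshold had the weakest of their 5 libraries between 3.34e-05 and 0.0013 from zero. An example is the bin of chromosome 11 from 45720001 to 45840000, with growing scores of -0.0002, -0.06 and -3.34e-05 and RIS scores of 0.42 and 0.36. The 5 bins just outside missed in 1 growing library by 6.22e-05 to 0.0004. An example is the bin of chromosome 10 from 64680001 to 64800000, with growing scores of 0.0003, -0.26 and -0.38 and RIS scores of 0.60 and 0.58. A further 456 bins changed sign on average but not in every library.

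Because the bins sit so near zero, the number depends on where zero is placed. The share of all bins on the A side was 50.7% to 51.3% in the growing and 55.8% in both RIS libraries, and only 117 bins (0.525%) moved from A to B. When every library was given the same share of A bins on each chromosome, 287 bins went to A and 342 went to B. Equal shares hold the crossings in both directions near balance by construction, so this scaling shows how many bins depend on the place of zero and does not test the excess. Under that scaling the median change of the 830 bins was 0.24, and in 664 of them both RIS scores were above all growing scores. The 830 were chosen on the same contrast, and the share over all bins under that scaling is not given here. With zero unmoved, 28.0% of all scored bins had both RIS scores above all growing scores. With the leading eigenvector of the uncentred matrix, 951 bins moved from B to A, of which 269 were among the 830, and 374 of the 830 were on the B side in every library. With scores computed within chromosome arms, 817 bins moved, of which 442 were among the 830, and 223 of the 830 were on the B side in every library. Similar numbers thus stood for partly different bins, and with the uncentred matrix for mostly different ones. Composition, gene content, contacts within chromosomes and captured bins are described here for the 830 only. Bins chosen without 1 library took the same sign in the library left out in 83.3% to 91.0% of cases, depending on the library. Among bins of 1 sign in all the other libraries, which mostly lie far from zero and are not matched to them, 0.624% to 2.40% changed sign in it.

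The 10 B-to-A bins with the largest change lay on chromosomes 1, 3, 6, 12, 14 and 15, and 4 of them were on chromosome 12. The largest change, 1.11, was in the bin of chromosome 12 from 65280001 to 65400000, with growing scores of -0.72, -0.78 and -0.94 against RIS scores of 0.31 and 0.28. The bin before it, from 65160001 to 65280000, overlaps TBC1D30 and scored -0.40, -0.27 and -0.56 in growing and 0.76 and 0.62 in RIS libraries. Together they formed 1 stretch with A chromatin on its left. About 1.2 Mb further on in the same chromosome, the bin from 66600001 to 66720000 holds the start of HELB, a DNA helicase that limits resection of broken DNA ends. It scored -0.39, -0.14 and -0.16 in growing libraries and 0.82 and 0.66 in RIS libraries. The next bin, from 66720001 to 66840000, also overlaps HELB and reaches into GRIP1, a scaffold protein of synapses. Its scores were -0.86, -0.63 and -0.85 in growing and 0.28 and 0.06 in RIS libraries. The starts of GRIP1 and of IRAK3, which overlaps the first of these bins, lie outside them.

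The bin of CTXND1, on chromosome 15 from 80520001 to 80640000, scored -0.37, -0.22 and -0.51 in growing and 0.76 and 0.62 in RIS libraries, and was flanked by A on both sides. CCDC88C, which encodes a regulator of WNT signalling, starts in the bin of chromosome 14 from 91800001 to 91920000. Its growing scores were -0.14, -0.21 and -0.11, and its RIS scores were 0.84 and 0.91. IL22RA2, a soluble decoy receptor for interleukin 22, starts in the bin of chromosome 6 from 137400001 to 137520000, which also overlaps IFNGR1. It scored -0.56, -0.51 and -0.68 in growing and 0.35 and 0.37 in RIS libraries. No protein-coding gene starts in the remaining 3 bins. Of these, 2 lie inside SLC9A9, an endosomal sodium/proton exchanger, on chromosome 3 from 143040001 and from 143280001, with changes of 1.03 and 0.98. The last was on chromosome 1 from 87600001 to 87720000, with a change of 0.95.

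B-to-A bins were mostly small islands and edges. They formed 589 runs of adjacent bins, of which 421 (71.5%) were a single bin, 124 were 2 bins and 44 were 3 or more, up to 7 bins (840 kb). In growing cells 494 runs (83.9%) touched A chromatin. A run had A on a single side in 339 cases, A on both sides in 155 and no A neighbour in 95. The next A bin was adjacent for 66.7% of the B-to-A bins, for 14.2% of all bins that stayed B, and for 49.1% of the 1091 bins that stayed B from a mean growing score between -0.5 and 0. These 1091 bins serve as the nearest comparison, but they were defined by not moving and began lower, with a median growing score of -0.35 compared with -0.21 for the 769 B-to-A bins of that band. Stretches that were B in all growing libraries numbered 1369, and 240 of them (17.5%) consisted of B-to-A bins throughout. These were short, since 227 of the 240 had at most 3 bins, and none of the 301 stretches over 10 bins was taken up whole.

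The longest run lay on chromosome 13 from 112200001 to 113040000 and holds the starts of SOX1, a transcription factor of neural progenitors, and SPACA7, a protein of the sperm acrosome. Averaged over its 7 bins, it scored -0.46, -0.40 and -0.28 in growing and 0.15 and 0.21 in RIS libraries. It bordered B on the left and A on the right. Next came 3 runs of 6 bins. That on chromosome 4 from 190200001 to 190920000, near the end of the long arm, holds FRG1, a gene beside the repeat array of facioscapulohumeral muscular dystrophy. It scored -0.38, -0.27 and -0.31 in growing and 0.17 and 0.23 in RIS libraries. That on chromosome 14 from 104400001 to 105120000 holds RD3L, ASPG, KIF26A, C14orf180 and TMEM179, and scored from -0.38 to -0.35 in growing and 0.21 and 0.25 in RIS libraries. That on chromosome 8 from 142680001 to 143400000 has no gene start and overlaps TSNARE1. Its scores were -0.29, -0.24 and -0.23 in growing and 0.16 in both RIS libraries. Of 5 runs of 5 bins, the first in map order was on chromosome 2 from 237120001 to 237720000, with ASB18, IQCA1 and ACKR3, a scavenging receptor for CXCL12. It scored -0.18, -0.27 and -0.42 in growing and 0.33 and 0.28 in RIS libraries.

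B-to-A bins were unevenly spread over the genome. They made up 6.29% of the scored bins of chromosome 11, 5.71% of chromosome 14 and 5.36% of chromosome 6, but 1.23% of chromosome 16, 1.53% of chromosome 19 and 0.699% of chromosome 22. Within 5 Mb of a chromosome end they made up 6.34% of 1625 bins, compared with 3.52% of the 20680 bins further in. Chromosome 21 is the one where the component used followed gene density less closely than another of the first 3 components, in 4 of its 5 libraries, and it held 11 of the B-to-A bins.

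The GC content of B-to-A bins was nearer to that of A than of B chromatin. Their median GC content was 42.6%, compared with 41.9% in bins on the A side in every library, 37.8% in bins on the B side in every library and 36.0% in A-to-B bins. The score is computed from contacts, and whether base composition enters it through the libraries was not tested. Against the bins that stayed B from a mean growing score between -0.5 and 0, which had a median GC of 38.4%, the 769 B-to-A bins from the same band had 42.5%. Stable A bins with a RIS score between 0 and 0.5 had 39.3%, so the B-to-A bins were also above the A bins nearest to them in score. Within chromosomes, the median GC of B-to-A bins was above that of stable B bins on 21 of 22 chromosomes, chromosome 19 being the exception, and above that of stable A bins on 14. Leaving out the outer 5 Mb of each chromosome gave 42.1% for B-to-A, 37.6% for stable B and 41.5% for stable A bins. CG dinucleotides followed the same order as in promoters, with medians of 9.90 per kb in B-to-A, 10.6 in stable A and 6.50 in stable B bins.

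Read from the side of composition, the share of bins that moved rose with GC. Among bins with a mean growing score between -0.5 and 0, 42 of 538 bins under 37% GC moved (7.81%), 97 of 509 bins from 37 to 39% (19.1%), 150 of 433 from 39 to 41% (34.6%) and 131 of 376 from 41 to 43% (34.8%). Of bins from 43 to 45%, 130 of 258 moved (50.4%), and of bins with 45% or more, 219 of 459 (47.7%). The median growing score of these groups differed little, from -0.27 to -0.23. Across all 22301 bins with sequence, the rank correlation of score and GC was 0.42, 0.43 and 0.43 in the growing and 0.47 in both RIS libraries. Neighbouring bins share contacts and composition, so this is a description. Recovered contacts per bin before balancing differed as well. Relative to the median bin of a library, the median B-to-A bin had a log2 value of -0.14 to -0.12 in growing and -0.07 to -0.06 in RIS libraries, whereas bins that stayed B from the same band had 0.11 to 0.15 in all 5. The part of this coverage in the result was not tested.

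**Figure D2:**
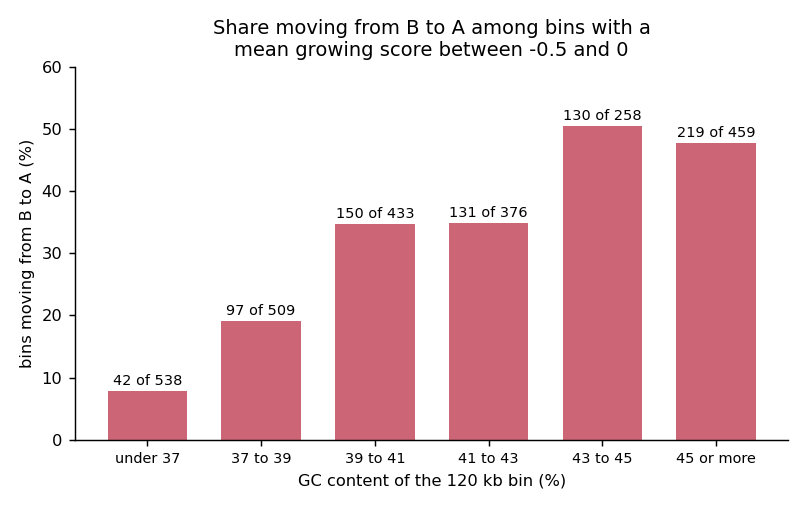
Share of bins that moved from B to A (%) by GC content, among bins whose mean growing score lay between -0.5 and 0; numbers above the bars give the B-to-A bins and all bins of the band. The share rose from 7.81% in bins under 37% GC to 50.4% at 43 to 45% GC.

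The 830 bins held the starts of 653 of the 19024 protein-coding genes in scored bins (3.43%), a share close to the bins' own share of the genome. That is 0.787 genes per bin, compared with 1.29 in stable A, 0.378 in stable B and 0.643 in the bins that stayed B from that band. No gene started in 421 of the bins (50.7%), compared with 77.3% of stable B and 41.6% of stable A bins. Genes in B-to-A bins had a median span of 39.2 kb, compared with 27.9 kb over all genes, but similar spans were found in A-to-B bins (38.4 kb) and in the bins that stayed B from that band (34.9 kb).

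Of 62 genes of the secretory phenotype (the cytokines, proteases and growth factors that senescent cells release), 2 started in B-to-A bins (3.23%, near the 3.43% of all genes) and 51 in bins on the A side in every library (82.3%, where 72.3% of all genes did). CCL20, a chemokine that draws lymphocytes and dendritic cells, lies in the bin of chromosome 2 from 228600001 to 228720000, which scored -0.18, -0.10 and -0.10 in growing and 0.30 and 0.27 in RIS libraries. IL33, an alarmin cytokine of the interleukin 1 family, lies in the bin of chromosome 9 from 6120001 to 6240000. Its growing scores of -0.63, -0.68 and -0.84 were among the lowest of all B-to-A bins, and its RIS scores were 0.12 and 0.10. None of 54 regulators of senescence and the cell cycle and none of 42 matrix and adhesion genes started in a B-to-A bin, and 47 (87.0%) and 33 (78.6%) of these lay in stable A bins. Of 65 lineage genes of neurons, 53 were in stable B bins, where 18.5% of all genes were, and 1 in a B-to-A bin, CTNNA3, an alpha-catenin of cell contacts. Its bin on chromosome 10 from 69480001 scored -0.23, -0.35 and -0.36 in growing and 0.09 and 0.04 in RIS libraries.

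The study lists genes upregulated in RIS with fewer contacts to regions of H3K27me3, a silencing histone mark. The copy used here has 95 entries, fewer than the study counts, so the overlap covers only part of the list. Of the 90 in scored bins, 3 started in B-to-A bins (3.33%, beside 3.43% of all genes) and 65 in stable A bins (72.2%, beside 72.3% of all genes). The 3 were PDE4B, a cyclic AMP phosphodiesterase, SLC1A3, a glutamate transporter, and AKAP6, an anchor of protein kinase A, with score changes of 0.40, 0.45 and 0.32. That list was drawn up with contacts from this series and is not independent evidence. Of the study's genes with cohesin islands in RIS, 607 of the 613 entries used here were in scored bins. Of these, 575 lay in stable A bins (94.7%, beside 72.3% of all genes). In a B-to-A bin lay 1, DGLUCY (0.165%, beside 3.43% of all genes). The study kept highly expressed genes when it defined the islands, so this list was not drawn from all genes alike.

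Some gene families had many members there and some none. Zinc finger genes with a ZNF symbol had 33 of 502 starts in B-to-A bins (6.57%), for example ZNF638, ZNF718 and ZNF732, and some were neighbours, such as ZNF354A, ZNF354B and ZNF354C on chromosome 5. Genes with a KCN symbol, which encode potassium channels and some proteins that bind them, had 11 of 93 (11.8%), for example the channel gene KCNC4 and KCNIP3 and KCNIP1, which encode calcium-binding partners of such channels. Most of the 11 were neighbours, namely KCNK5, KCNK17 and KCNK16 on chromosome 6, KCNJ11 and KCNC1 on chromosome 11, and KCNA6, KCNA1 and KCNA5 on chromosome 12. CC and CXC chemokines had 5 of 41, namely CCL20, CXCL13, CCL28, CXCL14 and CXCL12. Serpins, which inhibit proteases, had 5 of 34, and 4 of these were neighbours of the SERPINB cluster in the bin of chromosome 18 from 61200001 to 61320000. Likewise the 4 of 28 interferon genes, IFNA13, IFNA2, IFNA8 and IFNA1, shared the bin of chromosome 9 from 21360001 to 21480000. Clustered genes that share a bin count as a single event. Of 407 olfactory receptor genes, the largest family of B chromatin with 346 starts in stable B bins, 2 were in B-to-A bins. None of 149 genes of keratins and keratin-associated proteins, 63 protocadherins, 42 collagens, 24 matrix metalloproteinases, 71 histone genes or 77 ribosomal protein genes was. The share over all genes was 3.43%, and no family was tested.

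The contacts of B-to-A bins changed more on the B side than on the A side. Over distances beyond 2 Mb on the same chromosome, their mean contact with stable B bins, as log2 of observed over expected, stood at 0.37, 0.37 and 0.40 in growing libraries, compared with -0.15 and -0.09 in RIS libraries. Their contact with stable A bins stood at -0.39, -0.39 and -0.42 in growing libraries, compared with -0.36 and -0.42 in RIS libraries, so that the libraries of both conditions overlapped. The mean fall with B was 0.50 and the mean difference with A was 0.01. These contacts enter the score and so describe how the bins crossed zero. The fall with B held in every distance band, at -0.36 from 2 to 10 Mb, -0.56 from 10 to 50 Mb and -0.49 beyond 50 Mb. Meanwhile stable B bins met each other more, at 0.99 to 1.03 in growing and 1.28 to 1.34 in RIS libraries. Stable A bins met stable B bins less, by a mean difference of -0.32. Stable A bins met each other less beyond 50 Mb (-0.20), whereas the libraries overlapped from 2 to 10 Mb (0.02) and from 10 to 50 Mb (-0.04). B-to-A bins met each other more than expected in all libraries, at 0.71 to 0.74 in growing and 0.54 to 0.57 in RIS libraries, more than they met either stable class.

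**Figure D3:**
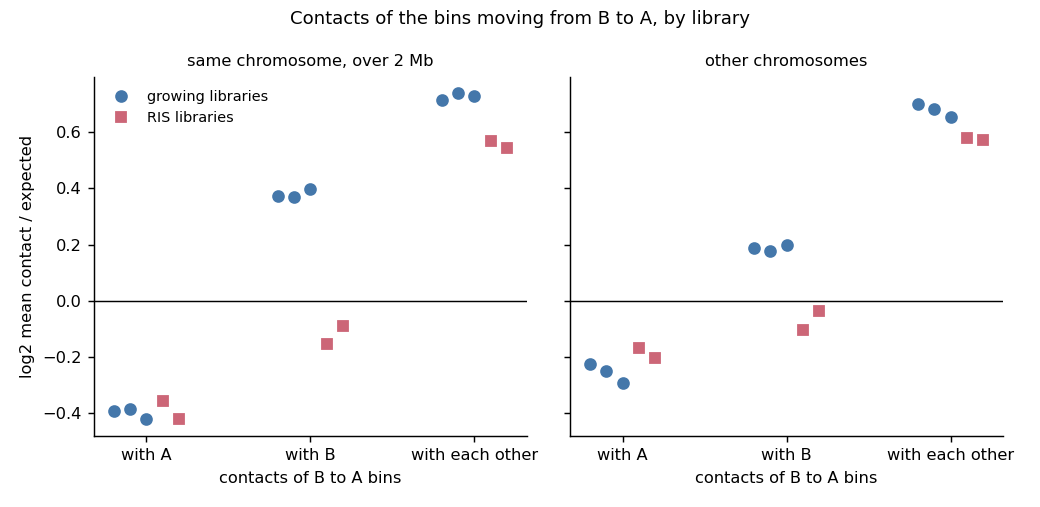
Mean contact of B-to-A bins over expected (log2) with bins on the A side in every library, with bins on the B side in every library and with each other, on the same chromosome beyond 2 Mb (left) and on other chromosomes (right); each point is a library. Contact with B was lower in both RIS libraries than in all growing libraries in both panels, and contact with A on the same chromosome overlapped between conditions.

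Contacts between chromosomes do not enter the score, although they come from the same libraries and contrast, and are therefore also given as a description. RIS libraries held more of them, 9.43 and 9.19% of the recovered contacts within autosomes compared with 7.05, 7.27 and 6.76% in growing libraries. Relative to the mean pair, B-to-A bins met stable B bins of other chromosomes at 0.19, 0.18 and 0.20 (log2) in growing and -0.11 and -0.04 in RIS libraries. They met stable A bins at -0.22, -0.25 and -0.29 in growing and -0.17 and -0.20 in RIS libraries. The groups did not overlap for either, but the difference with A, 0.07, was small beside that with B, which fell by 0.26. Between chromosomes, stable A bins met each other less in RIS libraries (-0.19) and stable B bins met each other more (0.30). Contacts of stable A with stable B bins overlapped between conditions (-0.03).

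The trans A/B preference of a bin, log2 of its mean contact with stable A over that with stable B bins on other chromosomes, combines both. Over the 816 B-to-A bins with enough pairs its median stood at -0.35, -0.34 and -0.41 in growing libraries, compared with -0.03 and -0.12 in RIS libraries. The median change over these bins was 0.29 and over all 19769 bins tested it was -0.19 (-0.02 over the 6641 bins with at least 300 listed pairs, where the B-to-A bins had 0.28), while the bins that stayed B from a growing score between -0.5 and 0 changed by -0.13. The size for the B-to-A bins depended on the settings, at 0.15 with a pseudocount of 1 mean pair value and 0.48 against the top and bottom 20% of bins by score. Of the 816 bins, 737 rose (90.3%), where 32.5% of all tested bins did. Among all bins with a growing score between -0.5 and 0, moving or not, the median trans change also differed with GC, from -0.22 under 37% GC to 0.20 at 43 to 45% and 0.30 at 45% or more, and the part of GC in the change of the B-to-A bins was not tested. Both RIS libraries stood above all growing libraries in 518 of them (63.5%), where 15.7% of all bins did. In limma across all bins, adjusted p under 5% was reached for 289 of them (35.4%) as higher in RIS, where 7.77% of all bins were called higher and 30.7% lower. The bins were chosen on the same contrast, so these counts describe the bins and are not support for it. Without RIS replicate 1, the median change was 0.25 over the B-to-A bins and -0.21 over all tested bins. The median change was 0.29 among libraries with few duplicate reads (growing replicates 1 and 2 with RIS replicate 1) and 0.28 among those with many (growing replicate 3 with RIS replicate 2).

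Counted from zero, most of these bins did not cross over between chromosomes. The preference was for B in every library in 401 of the 816 bins (49.1%, near the 48.1% of all tested bins). It turned from B in all growing to A in both RIS libraries in 103 (12.6%, where 1.58% of all tested bins did). It was for A in every library in 95 (11.6%, where 42.0% of all tested bins were). In 2 bins it turned from A in all growing to B in both RIS libraries, and in 215 the side differed between replicates. The name B to A therefore describes the score within chromosomes, and not where most of these bins lay by their contacts between chromosomes. All 10 bins with the largest score change had both RIS values above the 3 growing values, where 63.5% of the B-to-A bins and 15.7% of all tested bins did. The 10 were picked on the same contrast and libraries, so this is a description. The bin inside SLC9A9 on chromosome 3 from 143040001 had the largest difference of the 10, with -0.28, -0.26 and -0.68 in growing and 0.73 and 0.64 in RIS libraries. The CTXND1 bin preferred A already in growing libraries, at 0.27, 0.66 and 0.13, and had 1.51 and 1.19 in RIS libraries. The IL33 bin had -0.63, -0.67 and -0.75 in growing and 0.01 and -0.17 in RIS libraries. In contrast, the FRG1 run on chromosome 4 kept a strong B preference, averaging -2.14, -2.04 and -2.07 in growing and -2.21 and -2.14 in RIS libraries. The SOX1 run averaged -1.49, -1.52 and -1.34 in growing and -1.21 and -0.98 in RIS libraries. The long runs on chromosomes 8, 14 and 2 rose by 0.62, 0.50 and 0.33.

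**Figure D4:**
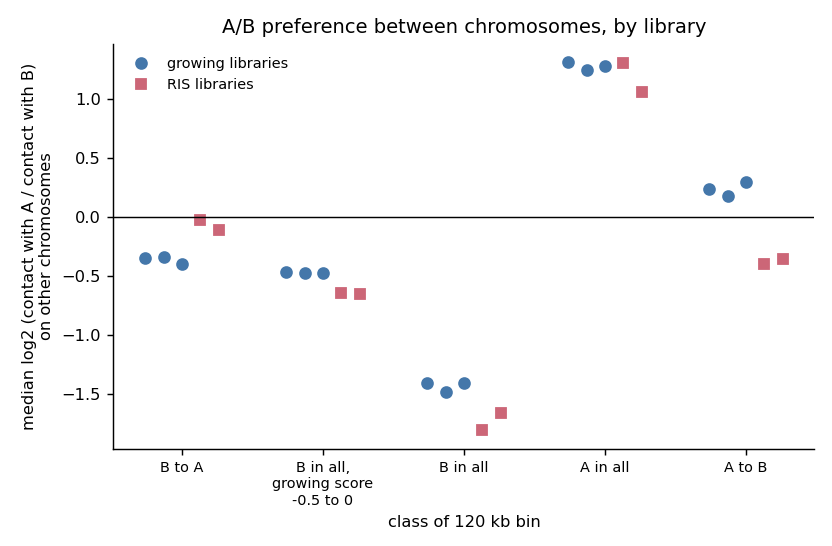
Median trans A/B preference (log2 of contact with A over contact with B on other chromosomes) by class of bin; each point is a library. B-to-A bins moved from about -0.35 towards 0 in the RIS libraries, while bins that stayed B from a growing score between -0.5 and 0, a class defined by not moving, went further from 0.

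Local contacts, which are part of the matrix that gave the score, are also given as a description. Contacts between 40 kb bins 80 to 320 kb apart, within a window of 360 kb centred on each bin and relative to the chromosome's mean at that distance, had a median log2 value of -0.02, -0.03 and -0.03 in growing and 0.07 and 0.06 in RIS libraries at B-to-A bins. Bins that stayed B from the band between -0.5 and 0 had -0.09, -0.11 and -0.09 in growing and -0.18 and -0.15 in RIS libraries. Both RIS values lay above all growing values in 57.8% of B-to-A bins, where 30.1% of all bins did.

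Capture Hi-C libraries had no part in choosing the bins, but the study describes them as matching the Hi-C libraries, and whether they came from the same cells is not given in the sources used here. Of the 830 bins, 25 overlapped captured regions, in 16 stretches, and their A/B preference was computed against stable A and B bins of the other captured regions. Other regions on the same chromosome were included without correction for distance, so the level of a bin can depend on which captured regions lie nearby. The test was limma over 550 bins. The preference rose in 19 of the 25 bins (76.0%), where 44.7% of all captured bins rose, and 7 were called higher in RIS (28.0%), where 13.6% of all captured bins were, with none called lower. Both RIS libraries stood above both growing libraries in 16 of the 25 bins (64.0%), where 29.1% of all captured bins did. With 2 libraries against 2 no exact permutation p can be below 0.333, so the adjusted p-values rest on the variance that limma pools over bins. When any 1 library was left out, fewer of these bins and fewer of all captured bins were called higher. In these fits, as in the Hi-C fit without RIS replicate 1, the lone library of a condition is assumed to vary like those of the other. When contacts were limited to captured regions on other chromosomes, 20 of the 25 bins rose, where 33.3% of all 538 bins did. None of the 25 was called by limma (1.67% of all bins were) and 2 rose at an unadjusted p under 0.05 (5.39% of all bins did), and calls of higher preference over all captured bins numbered 9 rather than 75.

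Of the called bins, 4 lay side by side or close together on chromosome 11 around MYOD1, the master regulator of skeletal muscle. The bin of USH1C and OTOG, genes of the inner ear, from 17520001 to 17640000, had a preference of -2.36 and -2.18 in growing and -1.33 and -1.21 in RIS capture libraries (limma difference 1.00 ± 0.13 SE, adjusted p = 0.0018). The bin of KCNJ11 and ABCC8, the subunits of the ATP-sensitive potassium channel, from 17400001 to 17520000, had -2.33 and -2.32 in growing and -1.37 and -1.46 in RIS libraries (adjusted p = 0.0018 in limma). The bin of MYOD1 and KCNC1 itself, from 17640001 to 17760000, had -2.49 and -2.33 in growing and -1.88 and -1.86 in RIS libraries (limma adjusted p = 0.018, but 0.21 without growing replicate 1, 0.072 without growing replicate 2 and 0.061 without RIS replicate 2). The bin of SERGEF and TPH1, from 18000001 to 18120000, had -2.31 and -2.25 in growing and -1.70 and -1.71 in RIS libraries (limma adjusted p = 0.013, but 0.12 without growing replicate 1 and 0.083 without growing replicate 2). All 4 stayed negative in this measure, which is not corrected for distance, so the level does not give their compartment side. With only other chromosomes their differences ran from -0.17 to 0.42.

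CEACAM1, a cell adhesion molecule, lies in the bin of chromosome 19 from 42960001 to 43080000. This bin had -1.58 and -1.62 in growing and -0.69 and -0.37 in RIS capture libraries (limma difference 1.07 ± 0.15 SE, adjusted p = 0.0018). CNTN2, a contactin of axons, and TMEM81 lie in the bin of chromosome 1 from 204960001 to 205080000, with -2.18 and -2.25 in growing and -1.24 and -1.26 in RIS libraries (limma adjusted p = 0.0015). With other chromosomes only, this difference was -0.14, and its score change was -0.016 when scores were computed within chromosome arms. The seventh was a bin without gene starts on chromosome 1 from 197520001 to 197640000 (difference 0.42 ± 0.12 SE, limma adjusted p = 0.039, but from 0.061 to 0.34 without any 1 library). The run of 5 bins on chromosome 14 from 76680001 to 77280000, with ESRRB, an orphan nuclear receptor, and VASH1, an inhibitor of new vessel growth, had differences from -0.09 to 0.20 in capture libraries and no call. The 2 bins of chromosome 15 from 66240001 to 66480000 had values from 3.03 to 3.47 in all 4 capture libraries, although their Hi-C scores were below 0 in growing cells. These levels were above the medians of stable A bins, 0.96 to 1.15, and the part of nearby captured regions in them was not tested.

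**Figure D5:**
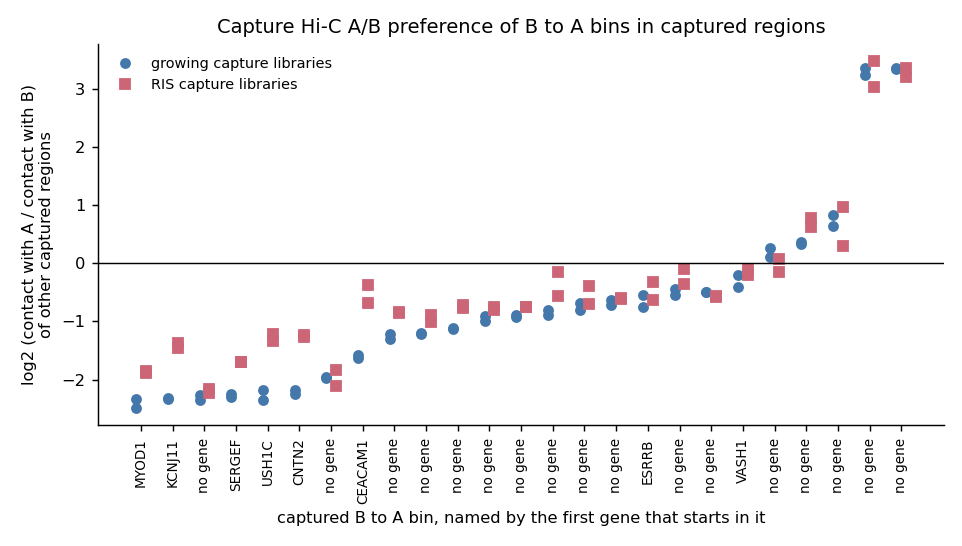
Capture Hi-C A/B preference (log2 of contact with A over contact with B in the other captured regions) of the 25 B-to-A bins in captured regions, ordered by their growing mean; each point is a capture library, and bins are named by the first gene that starts in them. The bins of KCNJ11, USH1C, CNTN2 and CEACAM1 show the widest gaps between both growing and both RIS libraries.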

How the data were processed

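Hi-C libraries (3 growing, 2 RIS) and capture Hi-C libraries (2 and 2) were analysed. The authors aligned reads to hg19 with HiC-Pro after FastQC and removed duplicates. The deposited signal is an ICE-balanced value per pair of 40 kb bins, or 10 kb bins for capture Hi-C. Balancing equalises bin sums, so depth was read from whole contacts recovered with 1 factor per bin. Hi-C values were summed to 120 kb. Bins on the A or B side in all 5 libraries are called stable A or B. The trans preference needed on average 100 listed 40 kb pairs with A and with B, and the capture preference 20 listed pairs, each with a pseudocount of 0.1 of the mean pair value, and both were tested on the log2 scale with limma 3.58.1 (R 4.3.3), with Benjamini-Hochberg adjustment at 5%. The score and limma were tested on simulated data. Genes and exons came from GENCODE v44lift37. The regions named are the 10 bins with the largest change, the 5 longest runs, the bins at the threshold and those in captured regions. The genes named start in these bins or are listed genes inside B-to-A bins, and families are given by examples in map order. Genes that only overlap a bin are named for its location. The B-to-A bins and the gene lists were chosen with earlier results of these data known. Captured regions and both gene lists of the study came from its supplementary files. Duplicate classes follow the study's read statistics. Scores under other components, zeros, distances and bin sizes, other filters and references, a replicate block and each library left out were tried. Expression and ChIP-seq data were not used here.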

Additional observations from a re-analysis of the deposited data

How the results depend on the processing

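The number of B-to-A bins, 830, was 287 with the same share of A bins in every library. It was 71 with a margin of 0.2 around zero, 1422 from growing replicate 3 and RIS replicate 2 alone, and 912 to 996 when a library was left out. Under the rule a margin can only remove bins and fewer libraries can only keep or add them, so these directions were fixed. The other counts were within 1.5 times, but with chromosome arms (817) 442 bins were shared and with the uncentred matrix (951) 269. The share of runs touching A, 83.9%, was 78.2% with the uncentred matrix, 89.1% with 240 kb bins, 60.9% with the margin, 89.1% from growing replicate 3 and RIS replicate 2 alone, and 81.8 to 85.3% without a library. The median trans change of 0.29 was 0.15 with a pseudocount of 1 mean pair value, 0.23 after centring each library, 0.48 against the top and bottom 20% of bins, 0.36 for bins chosen with equal shares, 0.51 for those past the margin (the last 2 chosen after seeing the data), and 0.25 to 0.31 without a library. For the trans preference, limma called 1536 bins higher and 6066 lower, 931 and 1250 with at least 300 listed pairs (of 6641 bins, so 14.0% rather than 7.77% were higher), 3850 lower against the top and bottom 20%, and 577 to 1610 higher, 4411 to 5300 lower and 130 to 260 B-to-A bins higher without a library, where growing replicate 2 (993 higher) and RIS replicate 1 (577 higher, 130 B-to-A bins) moved a count most. For the capture preference it called 75 higher and 83 lower, 73 and 143 after centring, 9 and 45 with other chromosomes only (0 of the B-to-A bins, chosen after seeing the data), and 39 to 57, 42 to 95 and 4 to 6 B-to-A bins higher without a library, the lowest without a growing replicate. With a replicate block, the trans fit called 1454 higher and 6033 lower (249 B-to-A bins higher) and the capture fit 101 and 115 (9 B-to-A bins higher). Libraries share only a number, with correlations of deviations of 0.20 and -0.18 for the Hi-C numbers and 0.17 for capture. The largest, 0.30, was between growing replicate 3 and RIS replicate 2, which have many duplicates. Growing replicate 3 has no partner in the block fit, whose median trans change of 0.27 equalled that of the fit without growing replicate 3. Of 315 values for 35 named bins, 1 reversed, the CNTN2 bin at -0.016 within chromosome arms. The values without a library could not reverse, because the rule fixed the sign of every score. Only those under other definitions of the score could. The causes were not tested. Hi-C has 3 libraries against 2, so no exact permutation p can be under 0.1. The balanced values do not show depth directly, and it was read from the recovered whole contacts. No group had 4 samples, so no sample was tested as an outlier.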
